A study of Populus tomentosa with 12 samples.

Results

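The subject is the interaction between tissue and iron (Fe) supply in Populus tomentosa, the Chinese white poplar: genes whose response to Fe deficiency in roots differed from their response in shoots. The genes were chosen by the test of that difference alone. All 42950 listed gene IDs in all 12 libraries entered, 25046 of them passed the filter on low counts and were tested, and 313 responded differently in the tissues. Libraries fall into 4 groups of 3: roots and shoots of micropropagated seedling-stage plants, from plants kept in woody plant medium solution that held Fe at 100 µM (the Fe-sufficient groups) or at 0 µM (the Fe-deficient groups). All groups share the agar culture on woody plant medium with sucrose and NAA (an auxin) that preceded the solution. Replicates are called biological, but the labels state neither the plants behind each nor how long the treatment lasted, so p-values measure the spread between these libraries. Titles of shoot libraries read CK (Fe-sufficient) and WT (Fe-deficient), without explanation, and groups were taken from the Fe label. Root titles follow another scheme, so any separate handling of roots and shoots cannot be told apart from tissue.

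As background, non-grass plants take up Fe by acidifying the soil around the root, reducing ferric Fe at the root surface and carrying ferrous Fe into root cells, and these steps are induced when Fe runs short. In shoots most Fe serves the chloroplast, in photosystems, cytochromes and chlorophyll synthesis, and leaves short of Fe turn pale. Fe status of the shoot is also signalled to the root, so that the tissues need not respond alike. Whether the IDs behind the differences below belong to these pathways was not analysed here: the files give IDs alone, and none of the 42950 IDs matched the reference table. Named genes are therefore given by ID alone, and neither a gene's role nor the tissue labels could be checked against known marker genes.

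Gene counts totalled 8663523 to 10886552 per root library and 5360670 to 6149779 per shoot library. Levels are CPM, counts scaled to a library total of 1e+06 with TMM factors computed over the 12 libraries. Root factors were 1.13 to 1.197 and overlapped between the Fe supplies. Shoot factors were 0.770, 0.829 and 0.841 with Fe and 0.910, 0.958 and 0.915 without. The shoot factors thus differed by Fe supply, and every shoot response rests on this scaling. Reads outside any gene made up 1.25% to 1.41% in roots and 49.5% to 50.0% in shoots, of the reads that lay in a gene, outside genes or in several. Any level set across tissues below rests on these differently assigned libraries, whereas a difference between responses compares each tissue with itself first. Such a difference still depends on the scaling between the Fe supplies of a tissue. Fe-sufficient shoot replicate 2 had the lowest mean Spearman correlation to its group, 0.956, against 0.966 to 0.978 for the other shoot libraries and 0.970 to 0.978 in roots.

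A response is the log2 fold change, Fe-deficient over Fe-sufficient, within a tissue, and the difference is the root response minus the shoot response. The test was edgeR's quasi-likelihood test in 1 fit of the 12 libraries, and a gene is called where its Benjamini-Hochberg adjusted p is under 0.05. Of tested genes 1.25% were called. The root response was the higher one in 164 of them, 0.655% of tested genes, and the lower one in 149, 0.595%. The smallest called difference was 0.77 in absolute log2 value and the median 1.65, with a median SE of 0.30, against a median difference of 0.34 and SE of 0.37 over all tested genes. A difference of at least 4-fold was found in 99 called genes and one of at least 8-fold in 37. Among all tested genes, called or not, 928 and 319 had fitted differences of these sizes, so most of those were not called. At the edge of the threshold, Potri.006G099600 was called with a difference of -1.73 (adjusted p by edgeR 0.0499) and Potri.002G119400, at -1.63, was not (0.05002).

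Each called gene was then put in a class by the tissue that drove its difference. Root-driven genes, 102 in number, had a root response at least 2 times as large as the shoot response in absolute log2 value. Shoot-driven genes, 97 in number, met the reverse condition. The remaining 114 genes had responses within 2 times of each other and of opposite sign and are called crossing. No called gene had responses within 2 times of each other and of the same sign. With a factor of 3 in place of 2, 70 genes were root-driven, 74 shoot-driven and 166 crossing. Classes derive from the responses that make up the tested difference, so class counts and medians are descriptions.

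**Figure D1:**
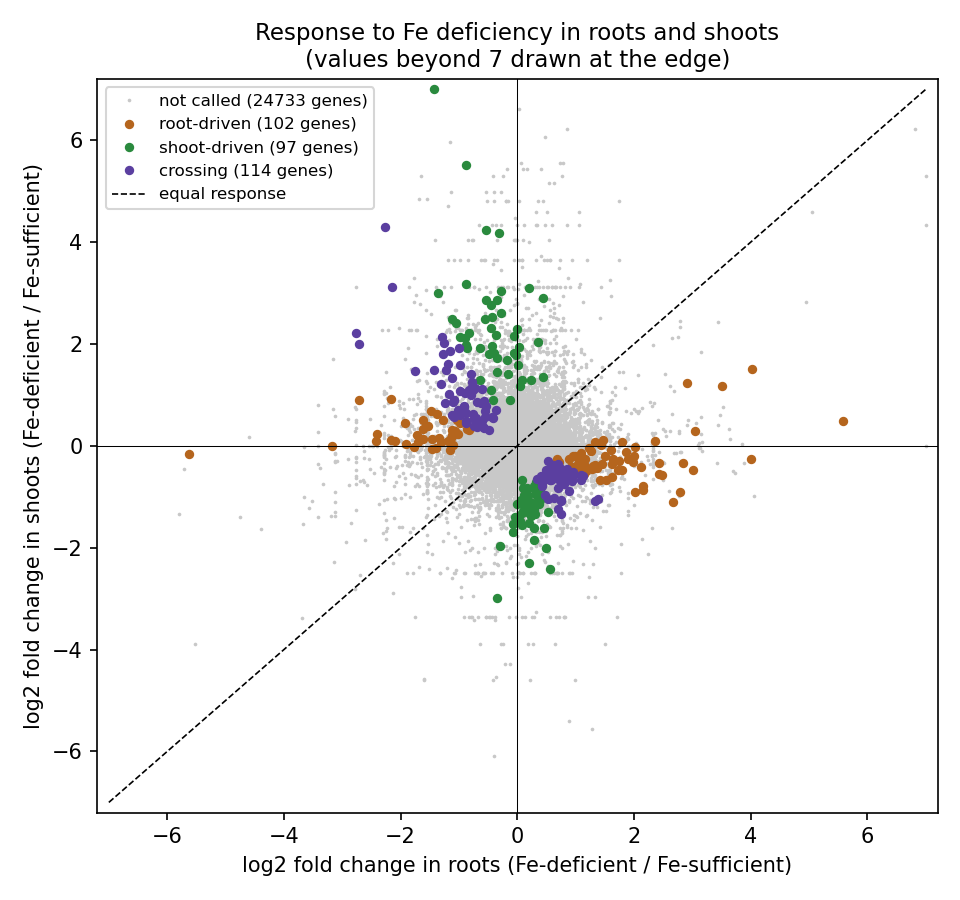
Root response (x axis) against shoot response (y axis), both log2 fold changes of Fe-deficient over Fe-sufficient, for the 25046 tested genes, with called genes coloured by class and the dashed line marking equal responses. The 313 called genes lie mostly in the upper left and lower right: 284 have responses of opposite sign, as do 12948 of the 25046 tested genes. The choice of genes by a large difference favours opposite signs, so nothing is read from the 284.

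The tests within each tissue, taken from the same fit, sort the called genes in another way. Among all tested genes 2.03% passed the test in roots and 0.775% in shoots. Of the 313 called genes, 123 passed in roots only, 101 in shoots only, 7 in both with opposite sign and 2 in both with the same sign. In 80 genes neither tissue passed on its own. Their median absolute response was 0.66 in roots and 0.65 in shoots, always of opposite sign. Fe groups were free of overlap in both tissues in 65 of them, against 3.09% of all tested genes. The calls use the same libraries and favour opposite signs and groups that lie apart, so nothing is read from the signs or from the 65. These 80 are mostly crossing genes, 71 of them, and only the difference of their responses crossed the threshold. When each tissue was fitted on its own 6 libraries instead, 44 genes passed in roots only and 159 in neither.

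Non-overlap of the 3 Fe-deficient with the 3 Fe-sufficient libraries followed the classes. Among all tested genes the Fe groups did not overlap in 20.7% in roots and in 13.8% in shoots. All 102 root-driven genes had non-overlapping groups in roots, and 31 of them also in shoots. All 97 shoot-driven genes had them in shoots, and 26 also in roots. Of the 114 crossing genes, 106 had them in roots, 109 in shoots and 101 in both, which 3.09% of all tested genes had. The calls use the same libraries, so nothing is read from these counts.

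**Figure D2:**
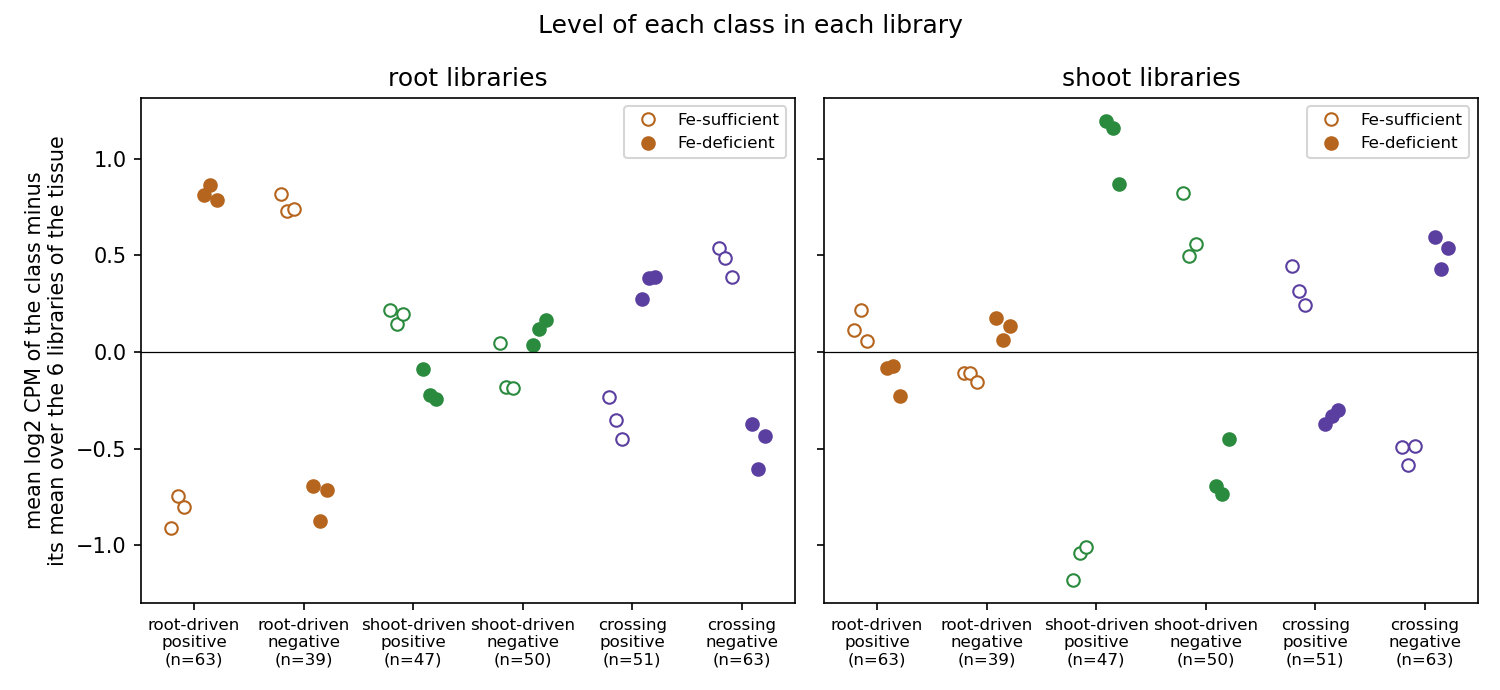
Mean log2 CPM (prior count 2) of each class in each library, minus the mean over the 6 libraries of that tissue, for root libraries (left) and shoot libraries (right). Open points are Fe-sufficient and filled points Fe-deficient libraries, and positive or negative is the sign of the response in the driving tissue (for crossing genes, in roots). In the driving tissue the Fe groups of every class are apart, which the choice of the genes from these same libraries favours. In roots, Fe-sufficient replicate 1 overlaps the Fe-deficient libraries for the 50 shoot-driven genes with a negative response.

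The largest root-driven group held 63 genes with a positive root response, of which 61 passed the test in roots, against 2.03% of all tested genes. The call and the class favour such passes, here and in the groups below, so nothing is read from their counts. The median response of the 63 genes was 1.52 in roots and -0.33 in shoots. These genes stood low in Fe-sufficient roots, with a median level of 3.30 CPM, and at 10.9 CPM in Fe-deficient roots, while their median level in shoots was 89.0 CPM with Fe and 72.5 CPM without. Summed over the 63 genes, root levels were 534, 563 and 642 CPM in the Fe-sufficient and 1827, 1561 and 1589 CPM in the Fe-deficient replicates. No library of the Fe-sufficient group reached the lowest of the Fe-deficient group. Each of the 63 genes had non-overlapping root groups, so their sum could not overlap, and nothing is read from it. The summed shoot levels were 10351 to 13117 CPM with Fe and 8075 to 9837 CPM without.

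Potri.010G000600 had the smallest p of this group. In roots its level was 4.71, 8.27 and 7.99 CPM with Fe and 34.8, 35.1 and 23.4 CPM without Fe in replicates 1, 2 and 3. In shoots it was 187, 181 and 175 CPM with Fe and 103, 76.3 and 120 CPM without. Root levels thus rose in every Fe-deficient library, and shoot levels lay lower without Fe, with no overlap in either tissue. The root response was 2.15 ± 0.24 (SE; adjusted p by edgeR 0.000764) and the shoot response -0.86 ± 0.22 (SE; 0.107), which did not pass. The difference was 3.004 ± 0.32 (SE; adjusted p by edgeR 0.00214). Shoots held 25.9 times the root level with Fe and 3.21 times without.

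Potri.013G085300 stood low in roots. Its root level was 2.12, 2.61 and 2.13 CPM with Fe, from 77 counts over the group, and 6.45, 6.19 and 6.23 CPM without, from 206 counts. Its shoot level was 143, 121 and 122 CPM with Fe and 107, 100.2 and 93.4 CPM without. The Fe-deficient root libraries lay close together and above all Fe-sufficient ones. In roots the response was 1.45 ± 0.16 (SE; adjusted p by edgeR 0.000846), the shoot response -0.36 ± 0.13 (SE; 0.330) and the difference 1.81 ± 0.21 (SE; 0.00235).

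The 2 genes that passed in both tissues with the same sign, named here after their values were seen, belong to this group. Potri.010G237300 was at 0.369, 0.697 and 0.177 CPM in Fe-sufficient roots, from 4, 8 and 2 counts, and at 6.34, 5.89 and 8.62 CPM in Fe-deficient roots. In shoots it was at 81.6, 72.7 and 76.4 CPM with Fe and at 191, 275 and 189.6 CPM without. It rose in both tissues, by 4.02 ± 0.34 (SE; adjusted p by edgeR 0.000248) on the log2 scale in roots and by 1.51 ± 0.21 (SE; 0.00269) in shoots, and the difference of 2.51 ± 0.41 (SE; 0.0112) passed as well. Potri.012G055100 stood at 7.67, 6.97 and 4.53 CPM in Fe-sufficient and at 36.3, 63.4 and 44.5 CPM in Fe-deficient roots, and rose there by 2.91 ± 0.25 (SE; adjusted p by edgeR 0.000248). Its shoot level was 116, 160.1 and 108 CPM with Fe and 317, 322 and 266 CPM without, a rise of 1.24 ± 0.23 (SE; adjusted p by edgeR 0.0202), and the difference was 1.67 ± 0.33 (SE; 0.0297). The groups of these genes did not overlap in either tissue.

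Root-driven genes with a negative root response were 39, and all of them fell in roots by the test there (passed by 2.03% of all tested genes). Their median response was -1.46 in roots and 0.21 in shoots. Most of them, 28 of 39, were within 4-fold between the tissues in mean level. The median was 50.4 CPM in Fe-sufficient roots, 18.3 CPM in Fe-deficient roots, 24.8 CPM in Fe-sufficient shoots and 34.7 CPM in Fe-deficient shoots. Summed root levels were 4146 to 4628 CPM with Fe and 1534 to 1846 CPM without, 2.62 times lower on average. Summed shoot levels were 2778 to 3147 CPM with Fe and 2997 to 3480 CPM without, and overlapped. In 1 of the 39, Potri.004G050700, named after its values were seen, all Fe-deficient root libraries had 0 counts, against 9, 5 and 11 counts in the Fe-sufficient ones, so the size of its fitted difference of -5.46 depends on the prior count and is no bound.

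Potri.008G074600 stood at 427, 420 and 291 CPM in Fe-sufficient roots and at 129, 147 and 96.4 CPM in Fe-deficient roots. In shoots it stood at 129, 123 and 104 CPM with Fe and at 148, 173 and 187 CPM without. Even the lowest Fe-sufficient root library, replicate 3, was above every Fe-deficient one, and the order of the tissues turned: roots held 3.19 times the shoot level with Fe, and shoots 1.37 times the root level without. The root response was -1.61 ± 0.20 (SE; adjusted p by edgeR 0.00115), the shoot response 0.51 ± 0.19 (SE; 0.391) and the difference -2.13 ± 0.28 (SE; 0.00364).

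Potri.018G130800 was the most abundant of the named genes in roots. It stood at 744, 635 and 592 CPM there with Fe and at 188, 138 and 133 CPM without. In shoots the replicates were at 301, 390 and 252 CPM with Fe and at 382, 265 and 359 CPM without. The root groups were far apart, while the shoot groups overlapped. For roots the response was -2.10 ± 0.21 (SE; adjusted p by edgeR 0.000613), the shoot response 0.09 ± 0.21 (SE; 0.952) and the difference -2.20 ± 0.29 (SE; 0.00403).

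Shoot-driven genes fell into groups of unlike character. In 47 genes the shoot response was positive, and 43 of them rose in shoots by the test there (passed by 0.775% of all tested genes). The median response was 2.12 in shoots and -0.41 in roots, and 31 of the 47 differences were at least 4-fold. These genes were scarce in Fe-sufficient shoots, with a median of 6.76 CPM, and reached a median of 27.5 CPM in Fe-deficient shoots, against 36.9 CPM in Fe-sufficient and 25.7 CPM in Fe-deficient roots. Their summed shoot level was 1251 to 1325 CPM with Fe and 3498 to 3800 CPM without. In 1 of them, Potri.001G226500, named after its values were seen, all Fe-sufficient shoot libraries had 0 counts, so its fitted difference of -10.1, the largest of all called genes, depends on the prior count and is no bound.

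Potri.003G081200 had the smallest p for the difference of all tested genes. In shoots its level was 5.50, 5.81 and 9.78 CPM with Fe and 35.9, 32.5 and 29.1 CPM without. In roots it was 207, 253 and 255 CPM with Fe and 134, 150 and 116 CPM without. It rose in shoots and fell in roots, without overlap in either. The shoot response was 2.21 ± 0.22 (SE; adjusted p by edgeR 0.000573), the root response -0.84 ± 0.18 (SE; 0.0297) and the difference -3.05 ± 0.28 (SE; 0.00101). Roots held 33.8 times the shoot level with Fe and 4.10 times without.

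Potri.011G117600 rose in shoots from 8.24, 11.8 and 10.2 CPM to 75.8, 112 and 61.6 CPM. Its root level was 30.4, 21.0 and 18.1 CPM with Fe and 19.4, 14.3 and 23.1 CPM without. The shoot groups were far apart, with Fe-deficient replicate 2 the highest, and the root groups overlapped. The shoot response was 3.04 ± 0.29 (SE; adjusted p by edgeR 0.000573), the root response -0.29 ± 0.26 (SE; 0.700) and the difference -3.33 ± 0.38 (SE; 0.00235). Roots held 2.29 times the shoot level with Fe, and shoots 4.39 times the root level without.

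In the other 50 shoot-driven genes the shoot response was negative, and 47 of them fell in shoots by the test there (passed by 0.775% of all tested genes). These were abundant shoot genes: the median level was 775 CPM in Fe-sufficient shoots and 322 CPM in Fe-deficient shoots, against 33.6 and 36.9 CPM in roots with and without Fe. The median response was -1.12 in shoots and 0.21 in roots, and 6 of the 50 differences were at least 4-fold. Summed over the 50 genes, the shoot level was 58526 to 77135 CPM with Fe and 25463 to 31635 CPM without. Within Fe-sufficient shoots replicate 1 held the highest level in 39 of the 50 genes, and within Fe-deficient shoots replicate 3 did so in 39.

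Potri.005G063300 stood at 481, 380 and 394 CPM in Fe-sufficient shoots and at 120, 143 and 150.3 CPM in Fe-deficient shoots. Its root level was 9.33, 6.88 and 7.36 CPM with Fe and 9.82, 12.4 and 10.2 CPM without. Both tissues were free of overlap, and the shoot fall was much the larger change. The shoot response was -1.60 ± 0.16 (SE; adjusted p by edgeR 0.000573), the root response 0.46 ± 0.18 (SE; 0.245) and the difference 2.06 ± 0.24 (SE; 0.00235).

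Potri.007G105900 stood at 870.3, 719 and 669 CPM in Fe-sufficient shoots and at 236, 253 and 297 CPM in Fe-deficient shoots. In roots it was at 17.5, 18.8 and 16.8 CPM with Fe and at 19.8, 21.7 and 19.7 CPM without. Its root groups, though free of overlap, differed little beside the shoot groups. The shoot response was -1.52 ± 0.15 (SE; adjusted p by edgeR 0.000573), the root response 0.21 ± 0.16 (SE; 0.630) and the difference 1.73 ± 0.22 (SE; 0.00313).

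**Figure D3:**
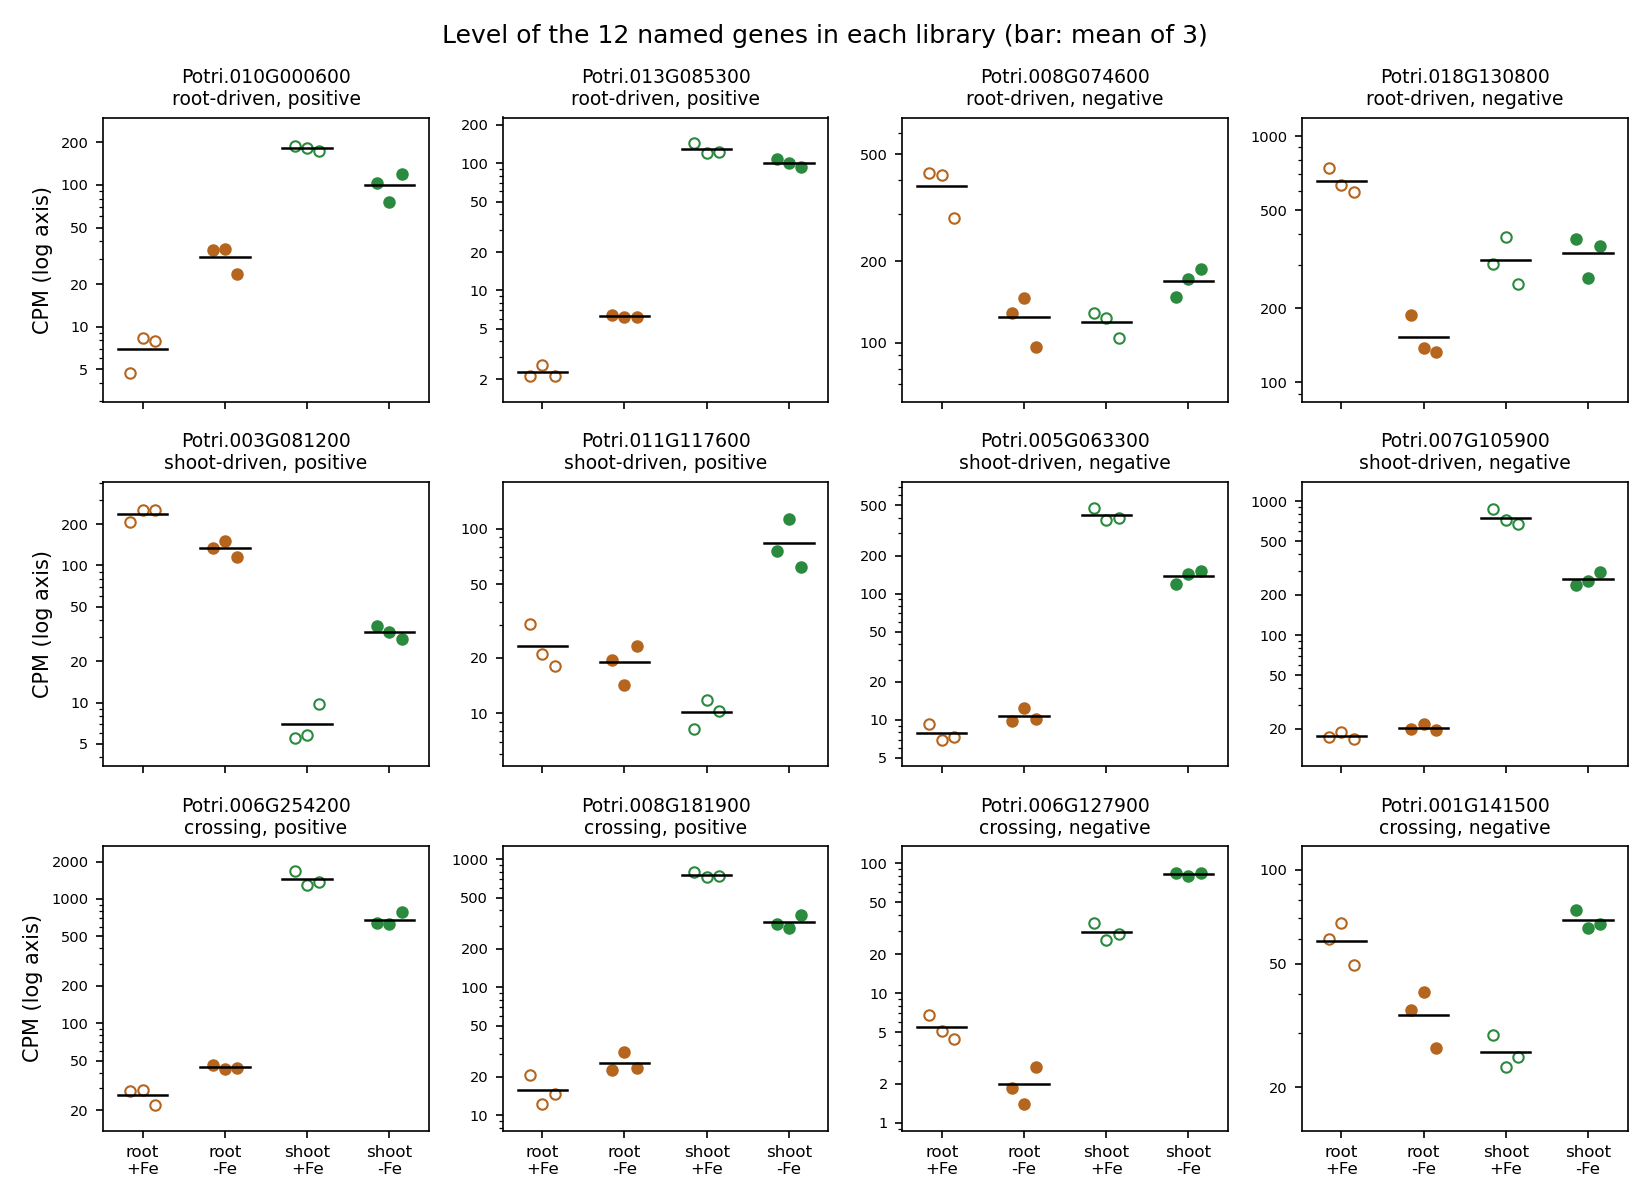
Level of the 12 named genes in each library, in CPM on a log axis that differs between panels, with roots in brown, shoots in green, open points for Fe-sufficient (+Fe) and filled points for Fe-deficient (-Fe) libraries, and bars for the mean of 3. Above each panel stand the class and the sign of the response in the driving tissue (for crossing genes, in roots). In Potri.018G130800 the shoot groups overlap and in Potri.011G117600 the root groups do. In the other 10 genes both tissues are free of overlap. The naming rule required no overlap in the driving tissue, and in both tissues for crossing genes, so nothing is read from it there.

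Crossing genes with a positive root response numbered 51. Their median response was 0.70 in roots and -0.63 in shoots, and 3 differences were at least 4-fold. These, too, were shoot genes: the median level was 9.58 CPM in Fe-sufficient and 17.9 CPM in Fe-deficient roots, against 224 CPM in Fe-sufficient and 150 CPM in Fe-deficient shoots. The test within a tissue was passed in roots only by 7 of them, in shoots only by 5, in both by 2 and in neither by 37. Summed root levels were 1070 to 1266 CPM with Fe and 1704 to 1846 CPM without, and summed shoot levels 39661 to 54672 and 23934 to 27797 CPM.

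Potri.006G254200 reached the highest level of the named genes. In shoots it was at 1667, 1306 and 1380.2 CPM with Fe and at 637, 633 and 779 CPM without, and in roots at 28.3, 29.1 and 21.9 CPM with Fe and at 46.3, 42.7 and 43.5 CPM without. It fell in shoots and rose in roots. The root response was 0.74 ± 0.17 (SE; adjusted p by edgeR 0.0382), the shoot response -1.09 ± 0.16 (SE; 0.00577) and the difference 1.83 ± 0.24 (SE; 0.00364).

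Potri.008G181900 showed a like pattern in levels. Its shoot level was 793, 726 and 746 CPM with Fe and 310.3, 289 and 366 CPM without, and its root level 20.6, 12.2 and 14.8 CPM with Fe and 22.7, 31.3 and 23.3 CPM without. Root groups did not overlap, yet the Fe-sufficient replicate 1 came close to the lowest Fe-deficient library. The root response of 0.70 ± 0.20 (SE; adjusted p by edgeR 0.101) did not pass, the shoot response was -1.23 ± 0.19 (SE; 0.00731), and the difference was 1.93 ± 0.28 (SE; 0.00576).

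The other 63 crossing genes had a negative root response, with a median of -0.87 in roots and 0.86 in shoots. Here 21 differences were at least 4-fold and 9 at least 8-fold, and 18 genes passed in roots only, 7 in shoots only, 4 in both and 34 in neither. Their median level was 32.9 CPM in Fe-sufficient and 19.3 CPM in Fe-deficient roots, and 24.1 CPM in Fe-sufficient and 38.0 CPM in Fe-deficient shoots. Summed root levels were 4676 to 5215 CPM with Fe and 2640 to 2997 CPM without, and summed shoot levels 3187 to 3494 and 5144 to 5423 CPM. The sums of the Fe groups did not overlap in either tissue, which the choice of the genes from the same libraries favours.

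Potri.006G127900 stood low in roots, at 6.84, 5.14 and 4.44 CPM with Fe and 1.84, 1.40 and 2.69 CPM without. In shoots it was at 34.5, 25.7 and 28.4 CPM with Fe and at 84.4, 79.5 and 85.1 CPM without. Fe-deficient shoot libraries lay close together, and the gap between the tissues widened: shoots held 5.40 times the root level with Fe and 42.0 times without. The root response was -1.43 ± 0.25 (SE; adjusted p by edgeR 0.00994), the shoot response 1.49 ± 0.20 (SE; 0.00233) and the difference -2.92 ± 0.31 (SE; 0.00214).

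Potri.001G141500 stood at 59.9, 67.7 and 49.4 CPM in Fe-sufficient and at 35.4, 40.4 and 26.8 CPM in Fe-deficient roots. In shoots it stood at 29.4, 23.3 and 25.1 CPM with Fe and at 74.5, 64.9 and 67.0 CPM without. Its order turned: roots were higher with Fe in every replicate, and shoots were higher without. In roots the response was -0.79 ± 0.17 (SE; adjusted p by edgeR 0.0322), the shoot response 1.41 ± 0.18 (SE; 0.00185) and the difference -2.19 ± 0.25 (SE; 0.00235).

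Tissue preference, the ratio of root level to shoot level averaged over both Fe supplies, was not used by the tested difference and divided the called genes by direction. Of the 164 genes with the higher root response, 158 (96.3%, exact 95% binomial interval 92.2% to 98.6%) were higher in shoots than in roots, against 54.4% of all 12662 tested genes with a difference above 0. Their median log2 ratio of root to shoot was -3.98, against -0.13. Of the 149 genes with the lower root response 49.7% (interval 41.4% to 58.0%) were higher in shoots, against 41.5% of all 12384 tested genes with a difference below 0. Genes are not independent, so the intervals describe counting only, and no test was made over genes.

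All 50 shoot-driven genes with a negative response were shoot-preferred, and so were 60 of the 63 root-driven and 48 of the 51 crossing genes with a positive root response. Among genes with the lower root response, 21 of the 39 root-driven, 20 of the 47 shoot-driven and 33 of the 63 crossing genes were shoot-preferred. The 6 exceptions among the 164 had log2 ratios of root to shoot of 0.58 to 1.88. Without Fe-sufficient root replicate 3 the shoot-preferred share of genes with the higher root response was 83.2%, the lowest over the omission of each library, and with DESeq2 it was 87.2%.

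**Figure D4:**
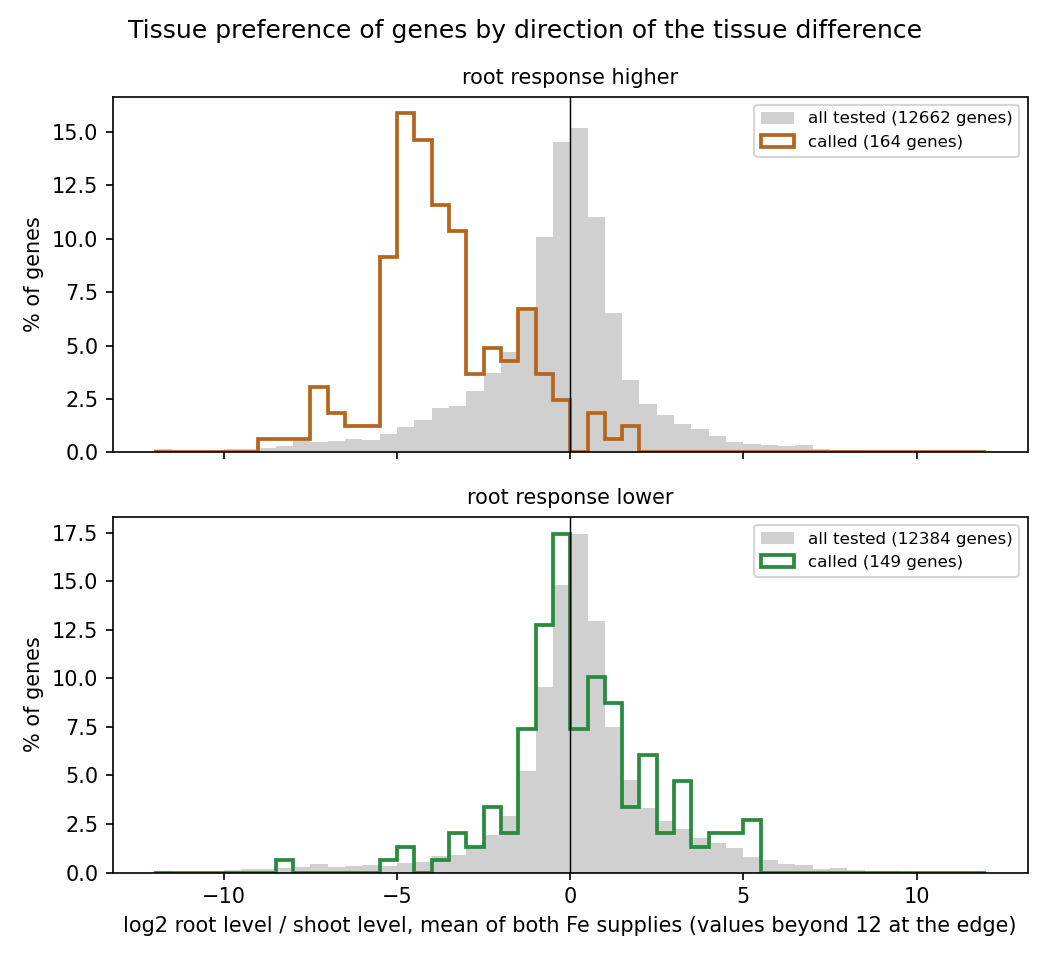
Tissue preference (x axis, log2 of root level over shoot level, averaged over both Fe supplies) as percent of genes (y axis), for genes with the higher (top) and the lower (bottom) root response. Grey bars show all tested genes of that direction and lines the called ones; at the top the 164 called genes have a median of -3.98 against -0.13 for all, and at the bottom the 149 called genes lie around 0.

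The same division appears when tested genes are taken by preference alone. Of 3466 genes at least 4-fold higher in shoots, 3.75% were called with the higher root response and 0.433% with the lower. Of 3161 genes at least 4-fold higher in roots, none was called with the higher root response and 0.981% with the lower, and of the 18419 genes between these limits 0.185% and 0.559%. Over all genes of a bin, called or not, the median response of the shoot-preferred was 0.13 in roots and -0.16 in shoots, and that of the root-preferred 0.01 in roots and 0.23 in shoots. With RLE size factors or TMM within each tissue the medians of the shoot-preferred genes were 0.13 and 0.11 in roots and -0.18 and -0.19 in shoots, and those of the root-preferred genes 0.20 and 0.18 in shoots, and 0.01 and -0.01 in roots.

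In 233 of the 313 genes (74.4%, against 56.4% of tested genes) the difference ran against the tissue preference, so that the tissue with the lower mean level had the higher response. The excess lay in 1 direction only. Among the 164 genes with the higher root response it was 158 (96.3%, against 54.4% of tested genes of that direction). Among the 149 with the lower root response it was 75 (50.3%, against 58.5%). A gap of at least 4-fold between the group means of the tissues was found in 203 of the 313 genes with Fe and in 169 without. Among tested genes 27.6% had such a gap with Fe and 25.6% without. In 76 called genes (24.3%, against 11.4% of tested genes) the tissue with the higher mean changed. Roots were the higher tissue in 118 of the 313 genes (37.7%) with Fe and in 66 (21.1%) without. Among tested genes the shares were 52.0% with Fe and 51.4% without. The called genes were chosen by a change in the ratio of root to shoot between the Fe supplies, in these same libraries. That choice favours turned orders and shifts of these shares, so nothing is read from them.

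Levels of shoot-preferred genes that were not called also differed between the Fe supplies, and in bulk tissue a change in the share of cells of a type and a change of RNA per cell cannot be told apart. A set of 750 uncalled genes was formed after the data were seen, with a mean shoot level of 10 CPM or more that exceeded the root mean 20 times or more. Their sum in roots was 3785, 3343 and 3268 CPM with Fe and 4155, 4312 and 4451 CPM without, a ratio of 1.24. For the 63 root-driven genes with a positive response the ratio of summed root levels was 2.86. The choice of the 63 as called and of the 750 as uncalled genes fixes the order of these ratios, and nothing is read from it.

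In shoots the 750 genes summed to 199850.0 to 259590.0 CPM with Fe and to 153650.0 to 164340.0 CPM without, 1.44 times lower. Sums weigh abundant genes most. The mean log2 level of the 750 genes, minus its mean over the shoot libraries, was 0.27, 0.12 and -0.02 with Fe. Without Fe it was -0.14, -0.13 and -0.10 in replicates 1, 2 and 3. The summed shoot level of the 50 shoot-driven genes with a negative response was 2.29 times lower without Fe. The 460 uncalled genes preferred by roots in the same way summed to 668 to 1008 CPM in Fe-sufficient and 709.7 to 1515 CPM in Fe-deficient shoots, which overlap. In roots their sums were 35465 to 36508 CPM with Fe and 39856, 38777 and 29723 CPM without in replicates 1, 2 and 3. The mean root sums were 35986 CPM with Fe and 36118 CPM without, with Fe-deficient replicate 3 below every Fe-sufficient library. For the 47 shoot-driven genes with a positive response the summed shoot level was 2.85 times higher without Fe. The choice of genes as called or uncalled favours larger ratios in the called ones here too, and nothing is read from their order. What part the levels of tissue-preferred genes have in the called differences was not tested.

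The calls were also followed through the omission of each library in turn. In all 12 omissions the sign of the difference held for all 313 genes, where a gene filtered out of a fit counted as held. The omissions reuse the libraries behind the calls, which favours a kept sign, so nothing is read from the signs. The call itself held in all 12 for 84 genes, of which 30 were root-driven, 24 shoot-driven and 30 crossing, and in none for 10. The number of calls fell to 116 without Fe-sufficient root replicate 2, to 203 and 164 without Fe-deficient root replicates 1 and 2, to 121 without Fe-sufficient shoot replicate 1, and to 104, 135 and 147 without Fe-deficient shoot replicates 1, 2 and 3. A gene kept its class in all 12 omissions in 78 of 102 root-driven, 81 of 97 shoot-driven and 63 of 114 crossing genes. All 12 named genes stayed called in each of the 21 alternatives in which they were fitted, with an adjusted p of at most 0.0222 (Potri.008G181900, by edgeR without Fe-deficient shoot replicate 1), which the choice of genes by the smallest p favours. DESeq2 called 855 genes, 3.41% of the 25046 genes given to it, of which 2916 received no adjusted p. Of the 313 genes, 310 were among the 855, all of the same sign and 305 in the same class.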

How the data were processed

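RNA sequencing of 12 libraries was deposited by the authors as 1 file of raw, unnormalised counts per library. The submitters' processing notes list edgeR 3.16.5, HTSeq 2.2.1, HISAT2 2.0.5 and Trimmomatic 0.36. Their settings, the build, the annotation and the use of strand were not given in the sources used here. Reads given to no gene, 58.3% to 64.0% of listed reads in roots and 72.6% to 73.1% in shoots, stayed out of library sizes and tests. Which genes share reads with a copy or a neighbour was not analysed here.

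Counts were fitted in 4 groups with edgeR 4.0.16 (R 4.3.3; TMM, filterByExpr with a minimum count of 10, robust quasi-likelihood F test, Benjamini-Hochberg adjustment over all tested genes). SE is the absolute log2 fold change over the square root of F. Alternatives used DESeq2 1.42.0, limma 3.58.1 (voom) and other scalings, filters and thresholds. Code was tested on simulated data. Per class and direction, the 2 IDs of smallest p were named, given a mean of at least 5 CPM and no overlap between Fe groups in the driving tissue (both tissues for crossing genes). The members and lists were chosen with earlier results of these data known. The gene lists on descriptions were not tested, since none of the IDs matched the reference table used.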

Additional observations from a re-analysis of the deposited data

Results flagged for a closer look

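Each of the 12 named genes responded differently to Fe deficiency in roots than in shoots, and the test was of that difference itself (edgeR, adjusted p at most 0.00576). Given as root minus shoot on the log2 scale, it was 3.004 for Potri.010G000600, 1.81 for Potri.013G085300, -2.13 for Potri.008G074600 and -2.20 for Potri.018G130800, which are root-driven. Among shoot-driven genes it was -3.05 for Potri.003G081200, -3.33 for Potri.011G117600, 2.06 for Potri.005G063300 and 1.73 for Potri.007G105900. In the crossing genes it was 1.83 for Potri.006G254200, 1.93 for Potri.008G181900, -2.92 for Potri.006G127900 and -2.19 for Potri.001G141500.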

How the results depend on the processing

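The 313 calls, of which 102 were root-driven, 97 shoot-driven and 114 crossing, changed with the tool and threshold. DESeq2 gave 855 calls (336, 233 and 286 in the same order), an adjusted p under 0.01 gave 56 (19, 21 and 16) and a replicate block among shoots gave 166 (57, 60 and 49). Limma voom with weights per tissue gave 66 root-driven and 75 crossing genes. Over the 12 omissions of a library the calls ranged from 104 to 264, root-driven genes from 36 to 109, shoot-driven genes from 33 to 95 and crossing genes from 35 to 85. The shoot-preferred share of genes with the higher root response was 96.3%, with 87.2% by DESeq2, 100% at an adjusted p under 0.01 and 83.2% to 98.5% over the omissions. That share was computed for the alternatives after the data were seen. The cause of these changes was not tested, although an omission also leaves fewer samples. Among genes with the lower root response the shoot-preferred share was 49.7%, and 34.0% with TMM within each tissue, which rescales roots against shoots. The shoot title numbers gave correlations of deviations of -0.10, 0.03 and 0.10 between same-numbered libraries, so they were not taken as pairs; root titles carry no replicate number. Genes with the higher root response were 52.4% of the calls, and 44.2% to 56.7% over the omissions, with fewer of them than of the lower in 7 of 12, so which direction was the more frequent depends on single libraries. Every count above stayed within 1.5 times under RLE size factors, other filters, robust = FALSE and a minimum log2 difference of 1. Shoot libraries held fewer gene counts than root libraries, which limits the shoot responses of low genes.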
